A study of Mus musculus with 6 samples.

Results

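The genes described here encode enzymes of liver detoxification outside the cytochrome P450 family, together with the reductase that serves the P450s. They were the rows of the count table whose symbol was Ephx1, Ephx2, Fmo1, Fmo5, Sult1a1, Sult1b1, Sult1d1, Sult5a1 or Por, and all 9 were found among 24411 genes. RNA was taken at postnatal day 19 from livers of 3 wild-type mice (p62+/+) and 3 mice that were heterozygous for a phosphomimetic Sqstm1 allele with Glu in place of Ser351 (p62S351E/+). Sqstm1 encodes p62, which binds KEAP1, the repressor of the transcription factor NRF2, and binds it more strongly when this serine is phosphorylated. The knock-in line came from C57BL/6N-derived ES cells modified by prime editing, through a single male chimera, and the mutation was present in the whole body. No sex, treatment or batch was given for the mice.

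Epoxide hydrolases add water to epoxides. Microsomal epoxide hydrolase (Ephx1) acts mainly on foreign epoxides and is among the textbook targets of NRF2 and of the receptor CAR, whereas soluble epoxide hydrolase (Ephx2) acts on epoxides of fatty acids. Flavin-containing monooxygenases (Fmo genes) oxidize nitrogen and sulfur atoms of drugs and dietary amines with NADPH. Cytosolic sulfotransferases (Sult genes) transfer sulfate from the donor PAPS to phenols, steroids and bile acids, which makes them soluble in water. Cytochrome P450 oxidoreductase (Por) passes electrons from NADPH to every microsomal P450.

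The deposited values were estimated read counts, which summed to between 8696712 and 10341622 per library. Only 134911 to 315436 of these lay outside Rn45s, Lars2 and Mir6236, so that single genes rested on few reads. For normalized counts, each library was scaled by its TMM factor to the geometric mean of the 6 effective library sizes. A gene was called where its adjusted p was below 0.05 and its log2 fold change beyond 1 in either direction, by edgeR's quasi-likelihood test. All 10 hepatocyte markers were detected, though Ass1 was at 0 in p62+/+ mice 1 and 2 and in p62S351E/+ mouse 1. Their summed counts were 4.99% to 5.49% of the counts outside those 3 genes in p62+/+ mice, against 7.53%, 9.98% and 5.58% in p62S351E/+ mice 1, 2 and 3. The 10 brain markers summed to 2287 to 2635 counts in p62+/+ mice and to 2444 in p62S351E/+ mouse 3, but to 19 and 31 in p62S351E/+ mice 1 and 2, where Snap25, Gfap, Aldoc, Snap91 and Stmn2 were at 0. As shares of the same counts, stellate cell markers made up 0.0678% to 0.117% in p62+/+ mice and 0.0345% to 0.0549% in p62S351E/+ mice, which did not overlap, whereas the shares of Kupffer cell, endothelial, bile duct, erythroid and lymphocyte markers overlapped. All 8 kidney markers were at 0 in every library. Xist, transcribed in females, had 70.8 to 1505 counts in p62+/+ mice, against 1, 0 and 1537 counts in p62S351E/+ mice 1, 2 and 3. The part of these marker differences in the results below was not tested, although fits with the brain markers or Xist as a covariate were run. Sqstm1 itself, counted without telling the alleles apart, did not pass the test (log2 fold change 0.30, SE 0.20, adjusted p = 0.499, edgeR). Its groups did not overlap, at 73.0 to 86.4 normalized counts in p62+/+ mice, against 89.9 to 105 in p62S351E/+ mice. Counts per gene do not show a point substitution, so they gave no check of the genotype.

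The 250 bases before a RefSeq start site (GRCm38.p6, the build of mm10) are shown for Ephx1, Sult1a1 and Por. These were the tested genes of the set whose normalized counts were higher in every p62S351E/+ mouse than in every p62+/+ mouse. Capitals mark the xenobiotic response element core GCGTG on either strand. The Ephx1 window is chr1:181017570-181017819 on the minus strand, the Sult1a1 window chr7:126676419-126676668 on the minus strand, and the Por window chr5:135688895-135689144 on the plus strand.
Ephx1: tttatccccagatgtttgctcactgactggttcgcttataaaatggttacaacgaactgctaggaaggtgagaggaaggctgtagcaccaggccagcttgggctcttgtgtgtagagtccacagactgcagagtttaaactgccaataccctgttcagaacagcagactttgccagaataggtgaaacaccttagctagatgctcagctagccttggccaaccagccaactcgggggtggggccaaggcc
Sult1a1: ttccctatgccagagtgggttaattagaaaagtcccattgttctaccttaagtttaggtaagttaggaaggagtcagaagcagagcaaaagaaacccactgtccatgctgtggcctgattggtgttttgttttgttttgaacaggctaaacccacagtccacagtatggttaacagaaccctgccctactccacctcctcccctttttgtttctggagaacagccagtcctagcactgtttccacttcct
Por: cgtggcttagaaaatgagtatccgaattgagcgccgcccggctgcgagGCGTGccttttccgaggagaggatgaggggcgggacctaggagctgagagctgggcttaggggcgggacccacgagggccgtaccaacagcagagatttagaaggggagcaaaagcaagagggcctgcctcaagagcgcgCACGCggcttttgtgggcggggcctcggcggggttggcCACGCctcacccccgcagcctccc
The Por window was richest in G and C (65.6%, against 51.2% for Ephx1 and 45.6% for Sult1a1) and held GCGTG at 3 places, from 202, 62 and 24 bases before the start site. The Ephx1 and Sult1a1 windows held no GCGTG. The antioxidant response element core TGACNNNGC, the motif recognized by NRF2 with its small MAF partners, was in none of these 3 windows on either strand. It was found in 10.2% and GCGTG in 28.2% of 32851 such windows over all genes. Windows were given for 7 of the 9 genes, and Ephx2 and Fmo1 were not among them. A match is a stretch of letters only, and elements farther from the start site were not examined. The Ephx1 and Por windows lie within the annotated genes, whose 5' ends are at 181020904 and 135670033. The sequence before those ends was not examined.

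Per kilobase of exon, with the exons of all transcripts of a gene merged, Sult1a1 was the most abundant of the 9 transcripts in p62+/+ livers, at 42.0 ± 6.12 normalized counts per kilobase (SD, n = 3). Por followed at 22.2 ± 2.97, Ephx2 at 17.9 ± 4.58, Fmo5 at 16.7 ± 3.43, Sult1d1 at 12.8 ± 4.28, Ephx1 at 10.8 ± 2.87 and Fmo1 at 10.4 ± 1.34 normalized counts per kilobase (SD, n = 3 each). The Sult1a1 values lay above those of every other gene in all 3 mice, whereas each of the following neighbours overlapped in range. Sult5a1 and Sult1b1 stayed below 1 normalized count per kilobase in each p62+/+ mouse. In p62S351E/+ livers Ephx1 stood next to Sult1a1, with 61.9 ± 15.7 and 78.9 ± 17.2 normalized counts per kilobase (SD, n = 3 each), and their ranges overlapped. Por, Fmo5 and Ephx2 came next, at 35.5 ± 5.37, 32.2 ± 18.7 and 30.2 ± 8.79 normalized counts per kilobase (SD, n = 3 each), again with overlapping ranges. The order within each genotype is a description, and transcripts used in liver may be shorter than the merged exons.

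Of the 9 genes, 7 had enough counts to be tested, of which 1, Ephx1, was called higher and 0 were called lower in p62S351E/+ mice. DESeq2 and limma-voom called the same gene, and 5 of the 7 had an unadjusted p below 0.05 in edgeR, as did 14.6% of all genes tested. Over all 5945 genes tested, 0.841% were called higher and 0.0841% lower. The median log2 fold change of the 7 genes was 0.74, against -0.03 over all genes tested, and each of the 7 was above 0. In 3 of the 7 (Ephx1, Sult1a1 and Por) every p62S351E/+ mouse exceeded every p62+/+ mouse, as was true of 12.0% of all genes tested. The summed normalized counts of the 9 genes were 381 to 441 in p62+/+ mice, against 610 to 1003 in p62S351E/+ mice. Because hepatocyte markers made up a larger share of p62S351E/+ libraries 1 and 2, the counts were also scaled to the summed hepatocyte markers. Alb gave 7379 to 7771 of the 14326 to 16326 summed counts in p62+/+ mice. In p62S351E/+ mice 1, 2 and 3 it gave 5101, 13009 and 8445 of 10161, 23115 and 17609. The markers did not move together, with log2 fold changes from -0.25 (Ass1) to 1.48 (Pck1). With hepatocyte marker scaling the median of the 7 genes was 0.09 and that of all genes -0.65. Ephx1 was the only tested gene of the 7 whose groups did not overlap, and the share over all genes was not computed for this scaling. With the brain markers as a covariate, Ephx1 had a log2 fold change of 2.12. Por was at 0.69, Sult1a1 at 0.71, Sult1d1 at 0.49, Ephx2 at 0.24, Fmo5 at 0.23 and Fmo1 at 0.14. Brain markers were low only in p62S351E/+ mice 1 and 2, so the genotype estimate of that fit rested largely on p62S351E/+ mouse 3. No p is given here for it. With Xist as a covariate, the log2 fold change was 2.15 for Ephx1, 0.76 for Sult1a1 and 0.72 for Por. It was 0.59 for Sult1d1, 0.43 for Fmo5, 0.42 for Ephx2 and 0.15 for Fmo1. Xist counts, too, were lowest in p62S351E/+ mice 1 and 2. In bulk liver a lower number of cells of a type and less RNA per cell cannot be told apart.

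**Figure D1:**
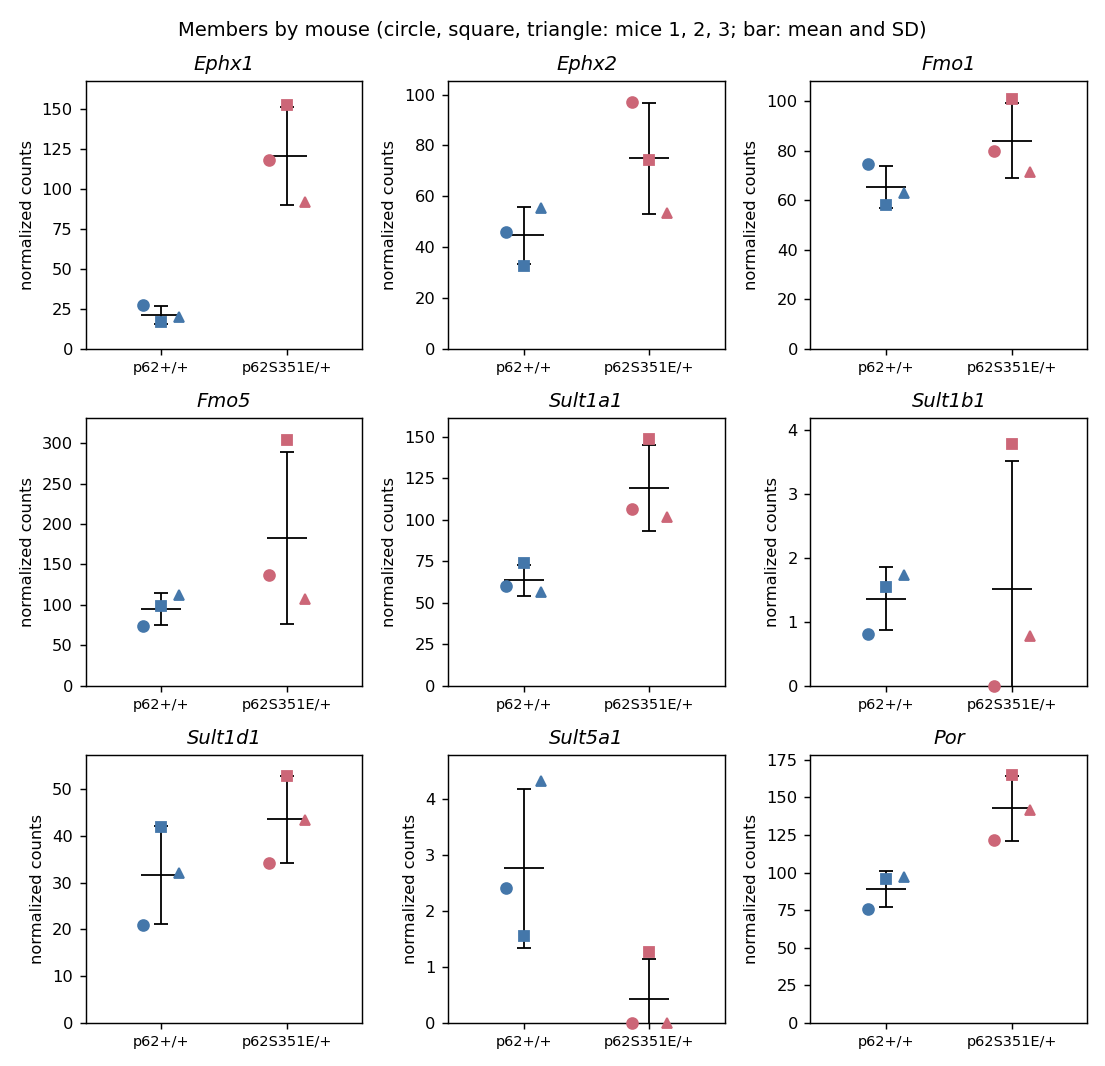
Normalized counts of the 9 genes in each mouse, with genotype on the horizontal axis and a separate linear vertical axis from 0 for each gene. Symbols are mice 1, 2 and 3, and bars are the mean and SD (n = 3). The Ephx1 groups are far apart (16.3 to 27.3 against 91.4 to 152 normalized counts), the Sult1a1 and Por groups are separate by less, and Sult1b1 and Sult5a1 are near 0.

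Ephx1, on chromosome 1 from 180976210 to 181020904 (minus strand), was higher in p62S351E/+ livers, where its mean was 5.70 times that of p62+/+ livers. It had 27.3, 16.3 and 19.9 normalized counts in the p62+/+ mice, against 118, 152 and 91.4 in the p62S351E/+ mice, which rested on 34, 21 and 23 and on 62, 121 and 118 raw reads. The lowest p62S351E/+ value was thus well above the highest p62+/+ value. The log2 fold change was 2.50 (SE 0.29, 95% interval 1.84 to 3.17, adjusted p = 0.0073, edgeR), the 16th smallest p among the 5945 genes. Per 10000 hepatocyte marker counts, Ephx1 had 20.8, 14.05 and 16.1 counts in p62+/+ mice, against 61.0, 52.3 and 67.0 counts in p62S351E/+ mice. With p62S351E/+ mouse 3, the library with brain transcripts at the level of p62+/+ mice, as the only mouse of its genotype, the log2 fold change was 2.12. The spread in that fit came from the p62+/+ mice alone, so no p is given for it. Ephx1 was above 0 under all 20 alternative settings. Its calls are not tallied over them, since they include the fit with 1 mouse of its genotype. They also include fits where genotype and brain markers could not be told apart. Among the settings where it lost the call were library size as the only scaling (adjusted p = 0.247) and hepatocyte marker scaling (log2 fold change 1.82, adjusted p = 0.0515). It was also not called without p62+/+ mouse 2 (log2 fold change 2.36, adjusted p = 0.0607) or without p62+/+ mouse 3 (log2 fold change 2.47, adjusted p = 0.0602), all by edgeR.

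Ephx2, on chromosome 14 from 66084374 to 66124500, had 45.7, 32.6 and 55.3 normalized counts in p62+/+ mice, against 97.1, 74.3 and 53.5 in p62S351E/+ mice. The groups overlapped, since p62S351E/+ mouse 3 lay below p62+/+ mouse 3. Its log2 fold change of 0.74 (SE 0.29, 95% interval 0.07 to 1.41) did not pass the test (adjusted p = 0.309, edgeR), and with library size as the only scaling it was -0.033. The ratio of Ephx1 to Ephx2 raw counts within a library, which needs no scaling, was 0.596, 0.5 and 0.359 in p62+/+ mice, against 1.22, 2.05 and 1.71 in p62S351E/+ mice. The balance of the 2 hydrolase transcripts therefore lay on the Ephx2 side in each p62+/+ mouse and on the Ephx1 side in each p62S351E/+ mouse, a difference in log2 ratio of 1.77. An exact two-sided permutation test of this ratio gave p = 0.1, the smallest value that 3 against 3 mice allow, and an adjusted p of 0.25 over 5 such ratios, which were chosen with the counts known.

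Fmo5, which encodes a monooxygenase that can act on ketones as well as amines, lies on chromosome 3 from 97628804 to 97655282. Its normalized counts were 73.8, 98.6 and 112 in p62+/+ mice, against 137, 304 and 107 in p62S351E/+ mice. The p62S351E/+ mean rested largely on mouse 2, and mouse 3 was inside the p62+/+ range. The log2 fold change was 0.94 (SE 0.39, 95% interval 0.04 to 1.84, adjusted p = 0.327, edgeR). Without p62S351E/+ mouse 3 it was 1.22 and called (adjusted p = 0.0125, edgeR), and without p62S351E/+ mouse 2 it was 0.37 (adjusted p = 0.628, edgeR). The fit without p62S351E/+ mouse 3 called 329 genes higher and 976 lower among 6390 tested. It kept p62S351E/+ mice 1 and 2, with 19 and 31 brain marker counts, so genotype and brain markers could not be told apart in it.

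Fmo1, on chromosome 1 from 162829561 to 162866610, differed least among the 7 tested genes. It had 74.6, 58.2 and 63.0 normalized counts in p62+/+ mice, against 80.0, 101 and 71.3 in p62S351E/+ mice, with p62S351E/+ mouse 3 inside the p62+/+ range. Its log2 fold change was 0.36 (SE 0.22, 95% interval -0.15 to 0.87, adjusted p = 0.473, edgeR), and it turned negative with library size as the only scaling (-0.33) and with hepatocyte marker scaling (-0.30). The ratio of Fmo5 to Fmo1 counts overlapped between the genotypes (0.989 to 1.78 in p62+/+ mice, against 1.5 to 3.01 in p62S351E/+ mice).

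**Figure D2:**
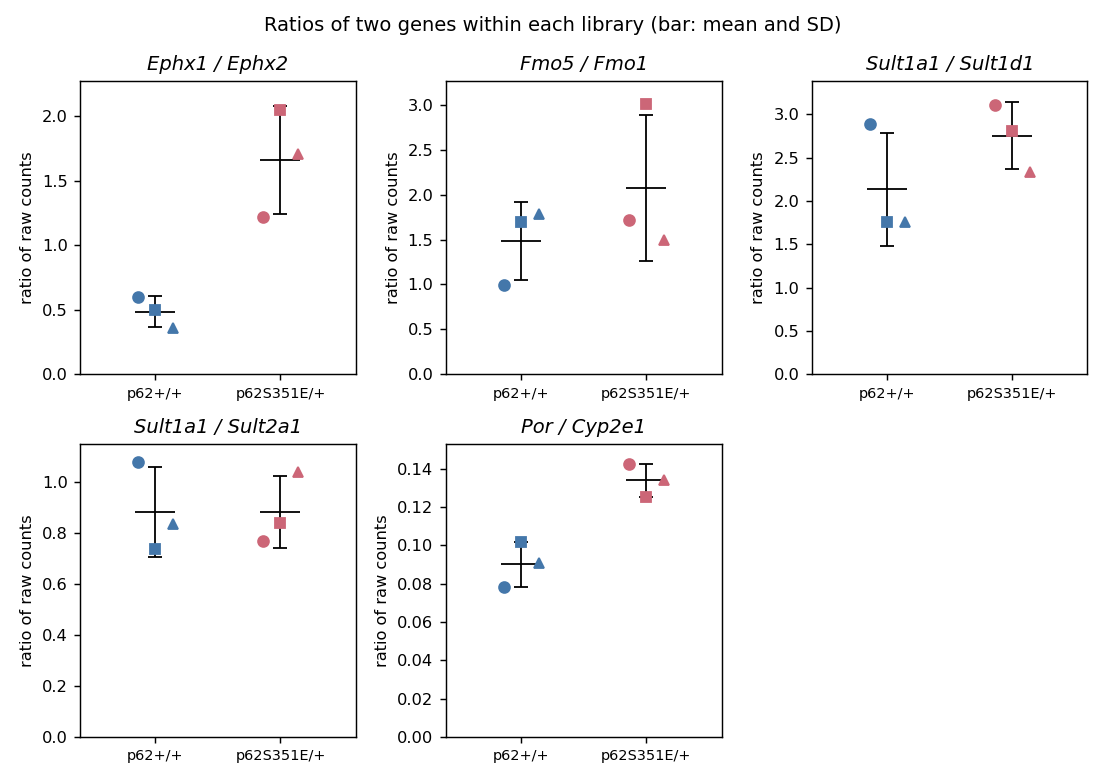
Ratio of the raw counts of 2 genes within each library, by genotype, on linear axes from 0. Symbols are mice 1, 2 and 3, and bars are the mean and SD (n = 3). The ratios Ephx1/Ephx2 and Por/Cyp2e1 do not overlap between the genotypes, whereas Fmo5/Fmo1, Sult1a1/Sult1d1 and Sult1a1/Sult2a1 do.

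Sult1a1, the main phenol sulfotransferase, lies on chromosome 7 from 126672865 to 126676432. It had 60.2, 73.7 and 56.1 normalized counts in p62+/+ mice, against 107, 149 and 101 in p62S351E/+ mice. The groups did not overlap, but the log2 fold change of 0.91 (SE 0.24, 95% interval 0.37 to 1.44) did not pass the test (adjusted p = 0.142, edgeR). In limma-voom it was 0.90 (adjusted p = 0.038) and missed only the fold change threshold, and in DESeq2 it was 0.88 (adjusted p = 0.228). Without p62S351E/+ mouse 3 it was 1.01 and called (adjusted p = 0.0078, edgeR), as 1 of 329 genes called higher in that fit. With p62S351E/+ mouse 3 as the only mouse of its genotype it was 0.69. Per 10000 hepatocyte marker counts the groups overlapped, at 45.4 to 63.6 counts in p62+/+ mice, against 51.0 to 74.4 counts in p62S351E/+ mice. Sult1a1 shares 61 exonic bases with Sgf29 on the opposite strand. The kit did not mark strand, and Sgf29, listed under its older symbol Ccdc101, had 1 to 4 counts per library.

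Sult1d1, a sulfotransferase of catecholamines and other phenols on chromosome 5 from 87554645 to 87569027, had 20.9, 41.9 and 32.0 normalized counts in p62+/+ mice, against 34.3, 52.9 and 43.4 in p62S351E/+ mice. The groups overlapped, and the log2 fold change was 0.47 (SE 0.30, 95% interval -0.23 to 1.16, adjusted p = 0.491, edgeR). It was 0.25 without p62+/+ mouse 1, 0.73 without p62+/+ mouse 2, -0.15 with library size as the only scaling and -0.20 with hepatocyte marker scaling. Sult1a1 counts were 1.76 to 2.88 times those of Sult1d1 in p62+/+ mice, against 2.34 to 3.11 times in p62S351E/+ mice, which overlapped.

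Sult1b1, the neighbour of Sult1d1 on chromosome 5 from 87513339 to 87538195, was nearly undetected, with 1, 2 and 2 raw counts in p62+/+ mice, against 0, 3 and 1 in p62S351E/+ mice. Sult5a1, on chromosome 8 from 123140192 to 123158315, gave 3, 2 and 5 raw counts in p62+/+ mice, against 0, 1 and 0 in p62S351E/+ mice. Both were below the filter on low counts and were not tested. A count of 0 allows up to 3 counts, which corresponds to 2.32 to 5.71 normalized counts in these libraries, so a loss of Sult5a1 was not detectable at this depth. When all genes with a count were fitted, Sult5a1 had an unadjusted p of 0.0577 and an adjusted p of 0.546 (edgeR).

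Por, on chromosome 5 from 135670033 to 135735326, had 75.4, 95.5 and 96.7 normalized counts in p62+/+ mice, against 122, 165 and 142 in p62S351E/+ mice. Each p62S351E/+ mouse was above each p62+/+ mouse, and the log2 fold change was 0.68 (SE 0.22, 95% interval 0.18 to 1.18, adjusted p = 0.234, edgeR), which did not pass the test. It was 0.68 also with p62S351E/+ mouse 3 as the only mouse of its genotype. Per 10000 hepatocyte marker counts the groups overlapped, with 57.6, 82.3 and 78.2 counts in p62+/+ mice, against 63.0, 56.7 and 104 counts in p62S351E/+ mice. Cyp2e1, an ethanol-oxidizing P450 that takes its electrons from POR, had a log2 fold change of 0.12 (SE 0.23, adjusted p = 0.815, edgeR), and this sign flipped under 4 alternatives. Por counts were 0.078 to 0.102 of those of Cyp2e1 in p62+/+ mice, against 0.125 to 0.143 in p62S351E/+ mice, which did not overlap (exact two-sided permutation p = 0.1, the smallest possible, adjusted p = 0.25 over 5 ratios).

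**Figure D3:**
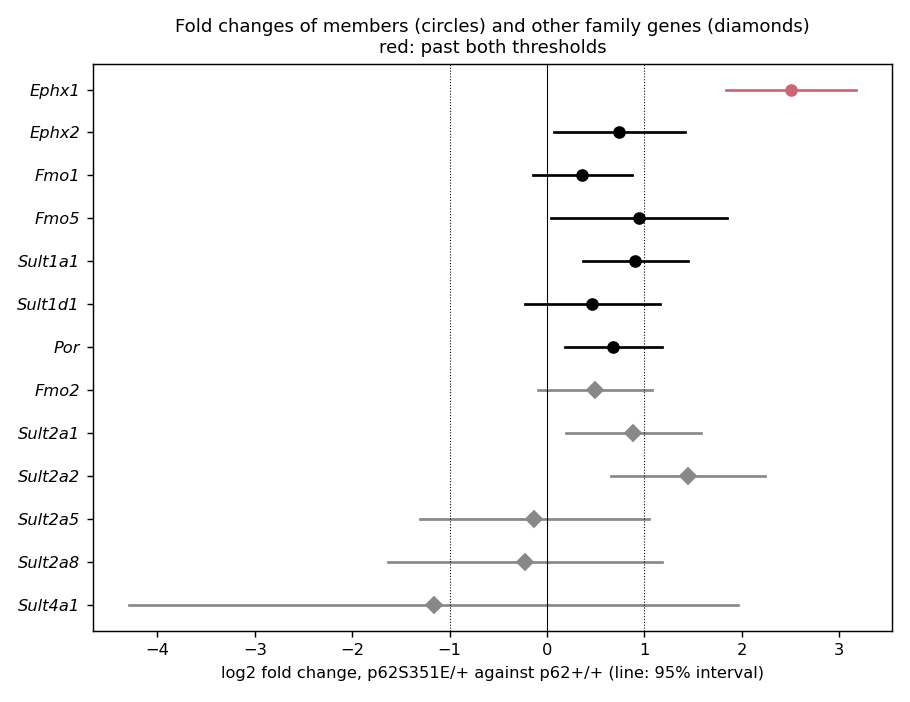
Log2 fold change of p62S351E/+ against p62+/+ livers, with 95% intervals, for the 7 tested genes of the set (circles) and 6 further epoxide hydrolase, FMO and sulfotransferase genes (diamonds). Dotted lines mark 1 and -1. Ephx1 (2.50, red) alone is past both thresholds, and Sult4a1 (-1.16) lies lowest.

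Of 23 further genes of the 3 enzyme families, 21 were in the table and 6 had enough counts. None of the 6 was called by edgeR or DESeq2 in either direction, with 2 at an unadjusted p below 0.05 in edgeR. Limma-voom called Sult2a2, and edgeR without p62S351E/+ mouse 3 called 3 (Sult2a1, Sult2a2 and Sult4a1). Over all 6390 genes tested in that last fit, 329 were called higher and 976 lower. The median log2 fold change of the 6 was 0.18. With 1 mouse left out it lay between -0.041 (without p62S351E/+ mouse 2) and 0.47 (without p62+/+ mouse 2). Sult2a1, a hydroxysteroid and bile acid sulfotransferase and the most abundant of them, had 55.8, 100 and 67.2 normalized counts in p62+/+ mice, against 139, 177 and 97.4 in p62S351E/+ mice (log2 fold change 0.89, SE 0.30, adjusted p = 0.255, edgeR). Sult2a2 had a log2 fold change of 1.45 (SE 0.35, adjusted p = 0.118, edgeR). Sult2a1, Sult2a2 and Sult2a5 had fractional counts, which arise where reads are divided among paralogs, whereas the counts of all 9 genes of the set were whole numbers. Ephx1 shares 72 exonic bases with a pseudogene, Gm36961, that is not a row of the table.

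Sult4a1, a sulfotransferase of neurons, was singled out after its values were seen. It gave 30, 32 and 28 raw counts in p62+/+ mice, against 0, 0 and 37 in p62S351E/+ mice. The libraries without Sult4a1 were those with 19 and 31 brain marker counts. Its log2 fold change of -1.16 (SE 1.25, adjusted p = 0.662, edgeR) turned to 0.24 both with the brain markers as a covariate and without p62S351E/+ mice 1 and 2. Ephx1 had 62, 121 and 118 raw counts in p62S351E/+ mice, all above the 21 to 34 of p62+/+ mice. In normalized counts it had 118, 152 and 91.4, and was lowest in mouse 3, the library with brain transcripts. Its log2 fold change of 2.50 fell to 2.12 both with the brain markers as a covariate and without p62S351E/+ mice 1 and 2. For both genes these fits are nearly the same and not separate checks, because brain marker counts were low only in p62S351E/+ mice 1 and 2. The cause of the change in Ephx1 was not tested.

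**Figure D4:**
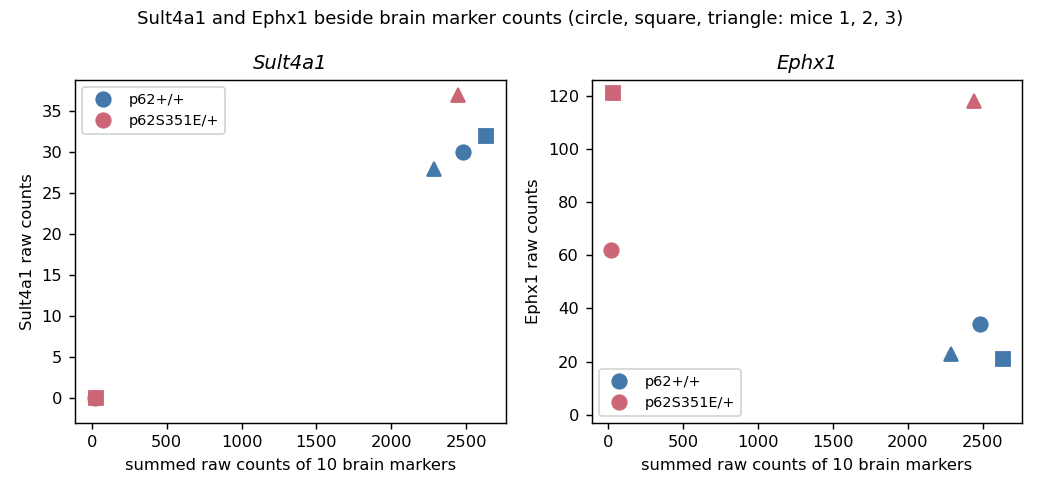
Raw counts of Sult4a1 (left) and Ephx1 (right) against the summed raw counts of 10 brain markers, 1 point per mouse, on linear axes. Sult4a1 is at 0 in the 2 p62S351E/+ libraries with few brain marker counts and at 28 to 37 in the other 4, while Ephx1 is high in all 3 p62S351E/+ libraries (62 to 121 counts).

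The sulfate donor PAPS and its by-products are handled by a small group of genes, of which 6 of 8 were tested and 0 were called by edgeR, DESeq2 or limma-voom (median log2 fold change 0.07, with 0 at an unadjusted p below 0.05 in edgeR). Without p62S351E/+ mouse 3, edgeR called Papss1, which makes PAPS, as 1 of 976 genes called lower among 6390. Papss1 had 12 to 14 raw counts in p62+/+ mice, against 2, 1 and 15 in p62S351E/+ mice. Leaving out 1 mouse moved this median between -0.06 (without p62+/+ mouse 1) and 0.23 (without p62+/+ mouse 2). Papss2, a PAPS synthase and the gene with the highest mean normalized count of them, had 36.9, 34.2 and 32.0 normalized counts in p62+/+ mice, against 43.8, 69.3 and 38.7 in p62S351E/+ mice (log2 fold change 0.56, SE 0.27, adjusted p = 0.374, edgeR). Its groups did not overlap. Of 9 genes of microsomal electron transfer besides Por, including the cytochrome b5 genes and other enzymes that POR serves, 8 were tested and 0 were called by edgeR, DESeq2 or limma-voom (median -0.04, or -0.23 to 0.11 with 1 mouse left out, with 3 at an unadjusted p below 0.05 in edgeR). The most abundant, Pgrmc1, a heme-binding partner of P450s, had a log2 fold change of 0.84 (SE 0.28, adjusted p = 0.242, edgeR). Without p62S351E/+ mouse 3, Cyb5a, the cytochrome b5 that donates electrons to some P450s, was the 1 gene of the list called higher (edgeR). In that fit 329 of 6390 genes were called higher.

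Among 24 microsomal P450 genes, the electron acceptors of POR, 22 were tested, 3 were called higher and 1 was called lower by edgeR (7 called by DESeq2, 9 by limma-voom and 13 by edgeR without p62S351E/+ mouse 3), and their median log2 fold change was 0.84. This median was 0.56 without p62S351E/+ mouse 2, 0.41 with the brain markers as a covariate, 0.32 with p62S351E/+ mouse 3 as the only mouse of its genotype and 0.13 with hepatocyte marker scaling, where the median of all genes was -0.65. Cyp2a5, a coumarin hydroxylase, was higher by 3.18 on the log2 scale (SE 0.39, adjusted p = 0.0089, edgeR), with 45.3 to 134 normalized counts in p62+/+ mice, against 788 to 921 in p62S351E/+ mice. Cyp2c37 and Cyp2d26 rose by 2.04 and 1.26 on the log2 scale (adjusted p = 0.0091 and 0.0456, edgeR), and Cyp4f14, a fatty acid omega-hydroxylase, fell by 1.28 (adjusted p = 0.0411, edgeR). Their counts were partly divided among paralogs. With 1 mouse left out, 0 to 11 P450s were called higher. The number was 0 without p62+/+ mouse 3, 1 without p62+/+ mouse 1 and 2 without p62+/+ mouse 2 or p62S351E/+ mouse 1. It was 11 without p62S351E/+ mouse 3, a fit that called 329 genes higher and 976 lower among all 6390 tested. The lower call of Cyp4f14 was lost in DESeq2 (adjusted p = 0.0548) and on leaving out any 1 mouse other than p62S351E/+ mouse 3 (adjusted p = 0.0937 to 0.222, edgeR), with log2 fold changes of -1.36 to -1.20. With hepatocyte marker scaling, 0 of the 22 were called higher and 1, none of these 4, was called lower (edgeR), and with library size as the only scaling 0 were called in either direction.

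The transcription factors and receptors known to act on detoxification genes were tested in 10 of 10 cases and 0 were called by edgeR (median log2 fold change 0.40, with 3 at an unadjusted p below 0.05). DESeq2 and limma-voom each called 1, Nr1i3, which encodes CAR, as did edgeR without p62S351E/+ mouse 3. The most abundant, Hnf4a, had a log2 fold change of 0.73 (SE 0.24, adjusted p = 0.241, edgeR). For comparison, 7 known NRF2 targets were taken. Of these, the study names Gstm1, Nqo1 and Ugdh in mouse liver and GCLC in human Huh-1 cells. It also names p62, whose RNA it found higher by PCR in younger p62S351E/+ livers. Sqstm1, not among the 7, was at 0.30 here and was not called. The median of the 7 was 2.55 on the log2 scale, with Gstm1, Ugdh and Gclc called higher (3 genes). The count was 7 without p62S351E/+ mouse 3 and 2 without p62+/+ mouse 1 or 2 (edgeR). Over all 6390 genes tested without p62S351E/+ mouse 3, 329 were called higher. The Ephx1 value of 2.50 lay beside those of Ugdh (2.55) and Gclc (2.57), below those of Gstm1 (3.59) and Nqo1 (3.93, adjusted p = 0.067, not called) and above those of Gclm (0.96), Txnrd1 (1.17) and Srxn1 (1.59), which were not called (edgeR).

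Over the 6 libraries, the genes whose log2 normalized counts ran most like those of Ephx1 were Tdo2, a tryptophan-degrading enzyme (Pearson r = 0.990), Surf4, a cargo receptor of the endoplasmic reticulum (0.990), and Fetub, a plasma protease inhibitor (0.986). Tdo2 had 101 to 123 normalized counts in p62+/+ mice, against 287 to 477 in p62S351E/+ mice. Of 1483 genes with a mean of at least 30 normalized counts, 153 had r above 0.9, so the likeness is a description that rests largely on the step between the genotypes.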

How the data were processed

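Liver RNA of 3 p62+/+ and 3 p62S351E/+ mice was depleted of ribosomal RNA and sequenced as single-end reads. According to the methods and the submitters' processing notes, the authors trimmed reads (Trim Galore), mapped them to mm10 (STAR) and deposited RSEM estimated counts per gene, not normalized. Tool versions and the annotation were not given in the sources used here. Groups came from the sample titles.

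The estimated counts were rounded to whole numbers, filtered by filterByExpr (minimum count 10), scaled by TMM and tested with edgeR 4.0.16 (quasi-likelihood, legacy set to FALSE, robust) in R 4.3.3, with Benjamini-Hochberg adjustment over 5945 genes. SEs were derived from the fold change and the F statistic. DESeq2 1.42.0, limma-voom (limma 3.58.1), other scalings and filters, covariates and left-out libraries were alternatives. Scripts were tested on simulated data. Replicate libraries differed by more than counting noise (chi-square per degree of freedom 1.76 to 6.21). The floor of 3 counts covers counting error only. Exons are of GENCODE M21 (GRCm38) and promoters of RefSeq (GRCm38.p6).

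The set and the lists were chosen with earlier results of these data known. Named were all 9 genes, called genes and the most abundant gene of each related list, 7 NRF2 targets, and the 3 genes most correlated with Ephx1. Sult4a1, Sult2a2, Papss1, Cyb5a, Nr1i3 and the 5 ratios were chosen after their values were seen, as was the scaling to hepatocyte markers. A further result is not reported here.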

Additional observations from a re-analysis of the deposited data

How the results depend on the processing

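Against 1 gene of the set called higher, library size as the only scaling, the replicate block and hepatocyte marker scaling (chosen after seeing the data) each gave 0, and leaving out 1 mouse gave 0 to 3. The 3 came without p62S351E/+ mouse 3, and the 0 without p62+/+ mouse 2 and without p62+/+ mouse 3. No gene of the set was called lower under any alternative by edgeR, DESeq2 or limma-voom. Over all genes, 50 were higher and 5 lower. Of these settings, limma-voom gave 131 and 12, library size only 12 and 2, no filter 79 and 10, the replicate block 18 and 1, the Xist covariate 27 and 2, the brain marker covariate 29 and 2, and an adjusted p below 0.01 gave 18 and 1. Hepatocyte marker scaling gave 11 higher. For lower genes, the legacy method gave 8, DESeq2 11, at least 10 counts in every library 29, and p62S351E/+ mouse 3 as the only mouse of its genotype 23. Leaving out 1 mouse gave 16 to 329 higher and 1 to 976 lower, the highest without p62S351E/+ mouse 3. The causes were not tested.

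Library size only and hepatocyte marker scaling moved the median of all genes to -0.68 and -0.65, DESeq2 to -0.18 and no filter to -0.16. The sign turned under library size only for Ephx2 (-0.033), Fmo1 (-0.33), Sult1d1 (-0.15), Papss2 (-0.14), Cyp2e1 (-0.50) and Sqstm1 (-0.39), and under hepatocyte marker scaling for Fmo1 (-0.30), Sult1d1 (-0.20), Papss2 (-0.16), Cyp2e1 (-0.53) and Sqstm1 (-0.33). Relative to the median of all genes, each tested gene of the set stayed above 0 under all 20 alternatives. Cyp2e1 was -0.13 with at least 10 counts in every library and ran from -0.042 to 0.27 with 1 mouse left out. Sult4a1 was 0.24 with the brain marker covariate and 0.24 without p62S351E/+ mice 1 and 2.

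Equal numbers mark different animals, and the labels name no pairing between them. The deviations of equally numbered mice from their group means had r of 0.0685, -0.0805 and 0.00264. With so few mice these values cannot exclude a shared litter or batch. As a replicate block the number left Ephx1 at a log2 fold change of 2.50 (adjusted p = 0.053, edgeR).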
